A study of Homo sapiens with 12 samples.

Results

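A set of 34 human genes was followed through a study of folate and pemetrexed in EA.hy926 cells. It covers homologous recombination, the Fanconi anemia pathway, mismatch repair and the damage checkpoint. The set was a list of gene symbols chosen with earlier results of these data known. Its counts beside the shares of all genes are therefore descriptions, not a test of the set. Of the 34 genes, 30 were among the 18417 genes on the array with a probe set of 1 gene symbol. Each of the 30 was read by 1 probe set. BRCA2, RBBP8, FANCA and FANCD2 were not analysed here. Levels are log2 expression values, so a difference of 1 is a doubling, and values of different genes are not set against each other because every probe set has its own brightness.

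EA.hy926 is an established line made by fusing human umbilical vein endothelial cells with cells of a lung carcinoma line. Hi cells were kept in medium brought to 9 uM folic acid, and Lo cells were a culture adapted to that medium's own content of 23 nM; both had 10% serum. Confluent cultures of each kind were left untreated (control) or received 0.5 uM pemetrexed (PMX) for 48 h, an antifolate drug that blocks thymidylate and purine synthesis. Medium was changed 24 h before treatment, in controls as well. The 4 groups (Hi control, Hi PMX, Lo control, Lo PMX) held 3 arrays each, labelled as biological replicates of this 1 line. Lo cells were adapted separately, so folate and any other difference between the cultures cannot be told apart.

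Homologous recombination repairs a broken chromosome by copying the sister chromatid. After the ends are trimmed to single strands, BRCA1 with BARD1, PALB2 and BRCA2 prepares the strand for exchange, and further mediators and the RAD54 proteins help it to pair with the sister. The Fanconi pathway serves crosslinked DNA and stalled forks: a core complex together with the ubiquitin-conjugating enzyme UBE2T places ubiquitin on the FANCD2 and FANCI pair, which calls in nucleases and recombination factors. ATR and its activator TOPBP1 sense single-stranded DNA and switch on CHEK1, while ATM responds to breaks through CHEK2. Many of these genes are known to be transcribed mainly in S and G2 phase.

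Before the results, 2 arrays need naming. The array labelled Hi control replicate 3 correlated at 0.995 on average with the Lo controls and at 0.990 with the other Hi controls, and that labelled Lo control replicate 3 at 0.997 with the Hi PMX arrays and 0.992 with its own group. Each thus lay with arrays of the other folate level, as would 2 arrays whose labels had been exchanged; whether they were exchanged was not tested. They were kept as labelled, so every 12-array value that involves a control group rests on labels in doubt, and results were also computed from the other 10 arrays. Array medians ran from 7.24 to 7.33. Among markers of endothelium, mean log2 levels were 12.94 for PECAM1, 12.55 for CDH5, 8.07 for VWF and 7.74 for CLDN5. Among those of epithelium, they were 5.64 for EPCAM and 5.78 for CDH1 but 12.11 for KRT7, 11.78 for KRT8 and 11.74 for KRT18. Among leukocyte genes, they were 4.13 for PTPRC and 12.01 for CD68. Without detection calls, and with every probe set having its own brightness, these levels do not show which markers were present.

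RefSeq promoter windows (build GRCh38.p14, 250 bases before to 50 bases after an annotated transcription start) were found for 32 of the 34 genes, 28 of them measured. The windows of 6 genes are shown because they are the ends of the response described next: BRCA1, RAD51AP1, XRCC2 and BARD1 had the largest falls in treated Lo cells among genes with a window, and XRCC3 and FANCF changed least. Capitals mark letters of 3 kinds of motif, searched on both strands: the E2F-type words TTTGGCGC, TTTCCCGC, TTTGCCGC and TTTCGCGC, the cell cycle homology words TTTGAA and TTCGAA, and the CCAAT box. BRCA1 has 2 annotated starts. The downstream one is shown, and the window of the other start held none of the motifs.
BRCA1, chr17:43125315-43125614, minus strand: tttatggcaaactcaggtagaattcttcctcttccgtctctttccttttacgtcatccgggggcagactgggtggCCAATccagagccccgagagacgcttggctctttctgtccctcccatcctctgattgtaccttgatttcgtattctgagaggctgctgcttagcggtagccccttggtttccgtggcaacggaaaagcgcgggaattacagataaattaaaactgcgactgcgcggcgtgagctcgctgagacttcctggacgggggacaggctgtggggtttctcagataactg
RAD51AP1, chr12:4538640-4538939, plus strand: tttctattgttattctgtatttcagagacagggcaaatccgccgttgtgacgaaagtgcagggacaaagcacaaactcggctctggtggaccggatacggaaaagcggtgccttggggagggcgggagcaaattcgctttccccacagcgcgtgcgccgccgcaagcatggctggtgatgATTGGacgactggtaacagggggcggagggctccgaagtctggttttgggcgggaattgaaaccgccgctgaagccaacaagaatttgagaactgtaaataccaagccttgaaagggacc
XRCC2, chr7:152676092-152676391, minus strand: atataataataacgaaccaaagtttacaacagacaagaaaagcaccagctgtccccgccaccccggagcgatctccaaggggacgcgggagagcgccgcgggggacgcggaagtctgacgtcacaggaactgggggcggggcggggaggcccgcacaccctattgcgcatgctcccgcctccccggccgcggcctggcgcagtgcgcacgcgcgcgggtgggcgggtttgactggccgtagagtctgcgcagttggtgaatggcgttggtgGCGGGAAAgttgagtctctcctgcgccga
BARD1, chr2:214809634-214809933, minus strand: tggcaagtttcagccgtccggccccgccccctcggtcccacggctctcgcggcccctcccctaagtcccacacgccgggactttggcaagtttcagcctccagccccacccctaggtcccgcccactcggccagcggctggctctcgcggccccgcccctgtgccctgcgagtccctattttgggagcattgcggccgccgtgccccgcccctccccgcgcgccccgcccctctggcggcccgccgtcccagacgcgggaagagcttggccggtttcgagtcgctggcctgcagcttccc
XRCC3, chr14:103715402-103715701, minus strand: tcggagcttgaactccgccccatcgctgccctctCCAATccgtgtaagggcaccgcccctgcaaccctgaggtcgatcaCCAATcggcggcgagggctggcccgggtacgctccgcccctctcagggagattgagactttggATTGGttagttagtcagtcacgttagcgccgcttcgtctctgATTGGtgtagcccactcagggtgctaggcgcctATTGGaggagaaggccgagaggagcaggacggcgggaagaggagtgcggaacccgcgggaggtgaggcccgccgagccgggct
FANCF, chr11:22625774-22626073, minus strand: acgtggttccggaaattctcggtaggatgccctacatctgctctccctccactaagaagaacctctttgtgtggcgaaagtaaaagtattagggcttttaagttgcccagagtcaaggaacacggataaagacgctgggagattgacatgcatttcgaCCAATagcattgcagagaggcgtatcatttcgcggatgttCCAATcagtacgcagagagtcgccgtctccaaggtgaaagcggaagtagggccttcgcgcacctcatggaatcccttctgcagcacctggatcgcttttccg
The XRCC2 window held the E2F-type word GCGGGAAA beginning at base 22 of the transcript. BARD1 held none of the motifs, BRCA1 and RAD51AP1 held 1 CCAAT box each, and XRCC3 and FANCF, which barely changed, held 5 and 2. No 2 matches overlapped in any window of the set.

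An E2F-type word was present in at least 1 window of 4 of the 15 genes that fell in treated Lo cells and had a window (26.67%): XRCC2, FANCC, TOPBP1 and MSH6. An E2F-type word was present in 1 of 13 measured genes that were not called (7.69%), EXO1, and in 3.99% of all 27305 genes of the table, or 3.31% of its 35116 windows. Without the 2 arrays whose labels are in doubt MSH6 was not called (limma adjusted p = 0.105). EME1, called in its place, held no E2F-type word. A cell cycle homology word was in 3 of 15 (20%), 2 of 13 (15.38%) and 19.54% of all genes. A CCAAT box was in 8 of 15 (53.33%), 7 of 13 (53.85%) and 39.72% of all genes. These are letter matches in short windows and were not tested against the expression changes.

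Pemetrexed lowered most of the set in Lo cells. The comparison of Lo PMX with Lo control asks what the drug did to cells adapted to 23 nM folic acid. Here 17 of 30 genes fell and 0 rose (limma, Benjamini-Hochberg adjusted p under 0.05 over all 18417 genes), where 5.14% of all genes fell and 5.60% rose. The median change of the 30 was -0.51, against 0.02 for all genes, with a range from -1.11 to 0.25 and 27 of 30 below 0. The 30 were chosen with earlier results of these data known, so these values are no test of the set. In 23 genes every Lo PMX array lay below every Lo control array, as in 14.1% of all genes, and in 1, ATR, every Lo PMX array lay above, as in 15.7%. Without the 2 arrays out of place 17 fell (all genes 5.74%), 16 of them the same genes: MSH6 was lost (adjusted p = 0.105) and EME1 gained (-0.70 ± 0.16, adjusted p = 0.0162).

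Among the recombination mediators 6 of 9 fell, with a median of -0.56. BRCA1, the ubiquitin ligase at the head of the pathway, read 8.38, 8.51 and 8.26 on the Lo controls and 7.32, 7.48 and 7.02 on the Lo PMX arrays. On the Hi arrays it read 7.93, 8.29 and 8.23 without the drug and 7.82, 8.12 and 8.44 with it. The treated Lo arrays were thus the lowest 3 of the 12, with no overlap with any other group. The change was -1.11 ± 0.16 (SE, n = 3 per group), a 2.16-fold fall (limma adjusted p = 0.00077). Over all genes, 93 had a larger fall than BRCA1.

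BARD1, the obligate partner that stabilises BRCA1, moved beside it. Its Lo controls read 7.83, 8.23 and 8.37 and its Lo PMX arrays 6.90, 7.50 and 7.12, against 7.96, 8.38 and 7.96 on the Hi controls and 7.78, 8.28 and 8.54 on the Hi PMX arrays. The treated Lo arrays were again below all others, although the spread within each group was wider than for BRCA1. BARD1 fell by 0.97 ± 0.21 (limma adjusted p = 0.00994).

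RAD51AP1, which stimulates strand pairing, had the largest standard error of the set. It read 7.90, 8.21 and 8.14 on the Lo controls and 6.59, 7.28 and 7.17 on the Lo PMX arrays. On the Hi controls it read 7.31, 8.02 and 7.87 and on the Hi PMX arrays 7.31, 7.96 and 8.32. The lowest Hi arrays came close to the highest Lo PMX array without reaching it. The fall was 1.07 ± 0.25 (2.10-fold, limma adjusted p = 0.0165), and it missed the threshold when Lo control replicate 2, Lo control replicate 3 or Lo PMX replicate 1 was left out (adjusted p up to 0.0743).

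XRCC2, a mediator of the BCDX2 complex, fell to a like extent with a smaller spread. The Lo controls read 9.84, 9.92 and 9.66 and the Lo PMX arrays 8.87, 8.72 and 8.82. The Hi controls read 9.50, 9.69 and 9.74 and the Hi PMX arrays 9.42, 9.70 and 10.06, all above the treated Lo arrays. XRCC2 fell by 1.00 ± 0.13, a 2.00-fold change (limma adjusted p = 0.000534).

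The translocases RAD54L and RAD54B, which remodel the paired DNA, each fell by 0.56 (SE 0.09 and 0.11; limma adjusted p = 0.00209 and 0.00488). The other 3 measured mediators did not pass. PALB2, the bridge between BRCA1 and BRCA2, changed by 0.17 ± 0.14, the mediator XRCC3 by -0.08 ± 0.09, and the mediator RAD51C by 0.23 ± 0.11 (limma adjusted p = 0.257). Of XRCC2, RAD51C and XRCC3, related subunits of the mediator complexes, XRCC2 was thus called lower and the others were not; the difference between them was not tested.

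**Figure D1:**
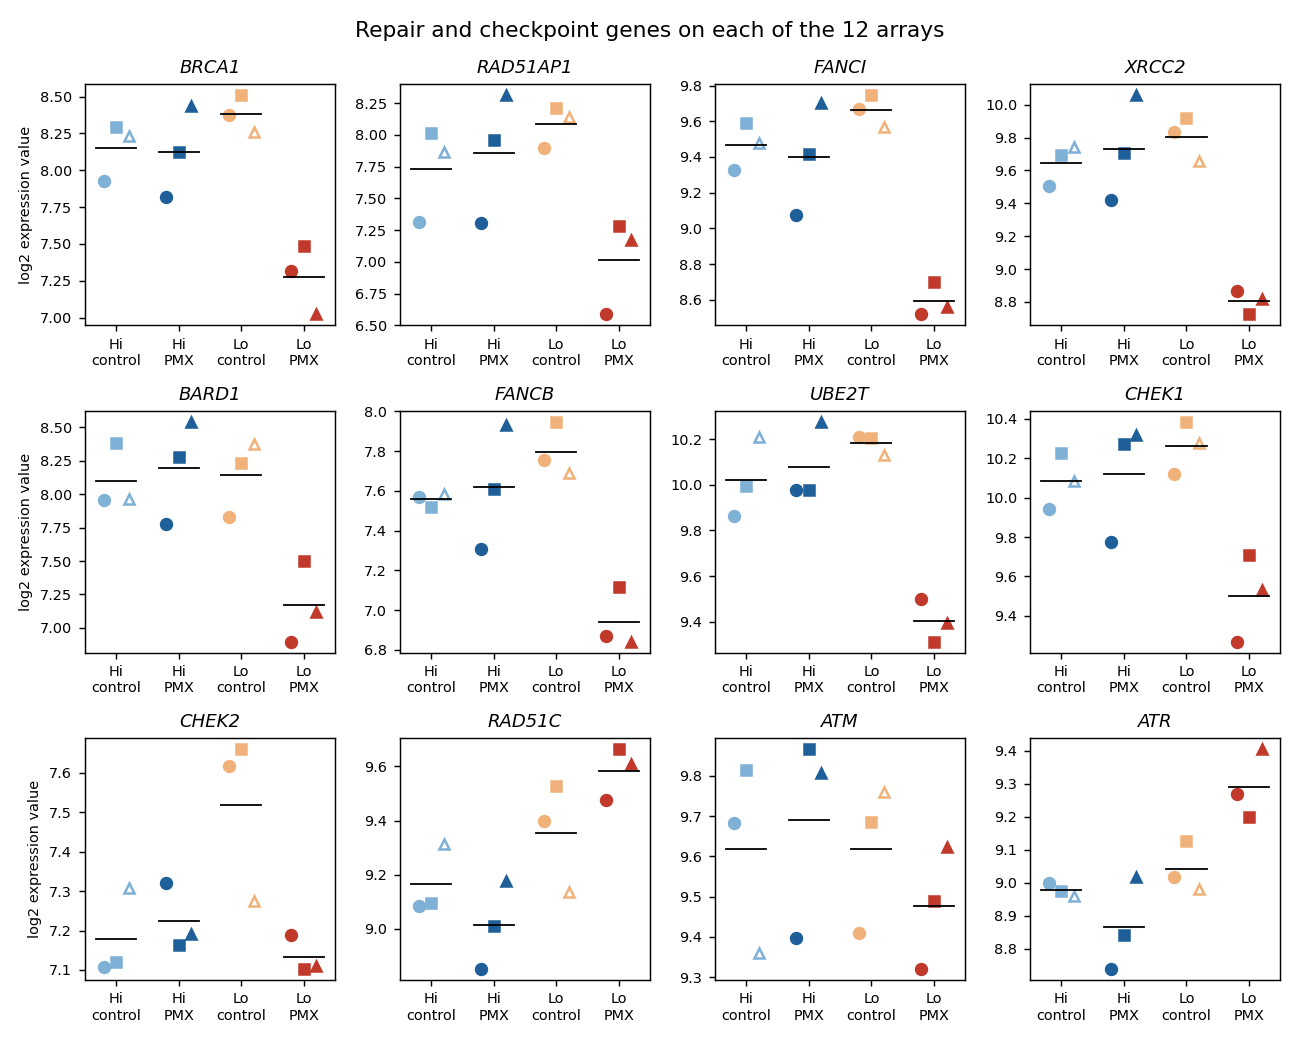
Log2 expression value (vertical axis, own range per gene) of 12 genes on the 12 arrays by group (horizontal axis); circles, squares and triangles are replicates 1, 2 and 3, lines are group means of 3 arrays, and open triangles are the 2 control arrays that lie with the other folate level. In the 8 genes of the upper 2 rows the Lo PMX arrays lie below all other arrays, and ATR lies above all others on Lo PMX arrays.

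Genes of end resection, helicases, nucleases and alternative end joining gave 2 falls among 5, with a median of -0.52. BLM, the helicase that dissolves double Holliday junctions, fell by 0.69 ± 0.13 (limma adjusted p = 0.00385), and its 3 Lo PMX arrays had an SD of 0.03. POLQ, the polymerase of microhomology-mediated end joining, fell by 0.52 ± 0.15 (adjusted p = 0.0491), a call that held in 4 of the 12 fits that each left out 1 array, those without Hi control replicate 1 or 3 and Hi PMX replicate 1 or 3; in the others the adjusted p reached 0.179. The BRCA1-bound helicase BRIP1 changed by -0.77 ± 0.24 (adjusted p = 0.0594), the nuclease subunit EME1 by -0.51 ± 0.19 (0.123) and the resection nuclease EXO1 by -0.38 ± 0.16 (0.165). In all 5 genes every Lo PMX array was below every Lo control array.

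The Fanconi core complex and its conjugating enzyme gave 4 falls among 8, with a median of -0.54. FANCB, a subunit of the catalytic module, read 7.76, 7.95 and 7.69 on the Lo controls and 6.87, 7.12 and 6.84 on the Lo PMX arrays. The Hi controls read 7.57, 7.52 and 7.59 and the Hi PMX arrays 7.31, 7.61 and 7.93. FANCB fell by 0.86 ± 0.13, or 1.81-fold (limma adjusted p = 0.00139), and no array of another group was as low as the treated Lo arrays.

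UBE2T, which supplies the ubiquitin for the FANCD2 and FANCI pair, read 10.21, 10.20 and 10.13 on the Lo controls, 9.50, 9.31 and 9.39 on the Lo PMX arrays, 9.86, 9.99 and 10.21 on the Hi controls and 9.98, 9.98 and 10.28 on the Hi PMX arrays. The gap between the treated Lo arrays and the next array, a Hi control, exceeded the range within the Lo groups. UBE2T fell by 0.78 ± 0.10, or 1.72-fold (limma adjusted p = 0.00047).

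FANCC fell by 0.74 ± 0.11 (limma adjusted p = 0.00114), its Lo PMX arrays lying between 7.33 and 7.43 and its Lo controls between 8.01 and 8.30. FANCG, which joins subunits of the core, fell by 0.43 ± 0.08 (adjusted p = 0.00562). The ubiquitin ligase subunit FANCL had a change of -0.65 ± 0.22 and did not pass (adjusted p = 0.0884); its 9 arrays outside Lo PMX ranged from 7.48 to 8.30. FANCE changed by -0.15 ± 0.07, the translocase FANCM by -0.11 ± 0.18 and FANCF by -0.09 ± 0.14, none of them called. The subunits of the one complex thus ranged from -0.86 to -0.09.

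FANCI, the measured member of the pair that the core complex modifies, had the smallest adjusted p of the set. Its Lo controls read 9.67, 9.75 and 9.57 and its Lo PMX arrays 8.52, 8.70 and 8.56. The Hi controls read 9.33, 9.59 and 9.48 and the Hi PMX arrays 9.07, 9.42 and 9.70. Every array outside the treated Lo group was above 9, and the 3 treated Lo arrays were below it. FANCI fell by 1.07 ± 0.13, or 2.10-fold (limma adjusted p = 0.000292).

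Of the mismatch repair pair, MSH6, a subunit of the complex that recognises base mismatches, changed by -0.44 ± 0.13 and passed narrowly (limma adjusted p = 0.0496); it held in 3 of the 12 fits that left out 1 array, those without Hi control replicate 3, Hi PMX replicate 1 or Lo control replicate 1 (adjusted p up to 0.186 in the others). PMS1, a MutL homolog, changed by -0.14 ± 0.09 and was not called.

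Of the 5 checkpoint genes 3 fell, with a median of -0.38. CHEK1, the effector kinase below ATR, read 10.12, 10.38 and 10.28 on the Lo controls and 9.27, 9.71 and 9.53 on the Lo PMX arrays. The Hi controls read 9.94, 10.23 and 10.09 and the Hi PMX arrays 9.77, 10.27 and 10.32. All 9 arrays of the other groups were above the treated Lo arrays, the nearest, Hi PMX replicate 1, by a small margin. CHEK1 fell by 0.76 ± 0.15, or 1.69-fold (limma adjusted p = 0.00595). TOPBP1, which activates ATR, fell by 0.45 ± 0.10 (adjusted p = 0.0101).

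CHEK2, the effector kinase below ATM, followed another order. It read 7.62, 7.66 and 7.28 on the Lo controls and 7.19, 7.10 and 7.11 on the Lo PMX arrays, against 7.11, 7.12 and 7.31 on the Hi controls and 7.32, 7.16 and 7.19 on the Hi PMX arrays. The treated Lo arrays therefore overlapped the Hi arrays, and Lo control replicates 1 and 2 were the highest. CHEK2 fell by 0.38 ± 0.10 from control to drug in Lo cells (limma adjusted p = 0.0287), and by 0.51 ± 0.07 without the 2 arrays out of place (adjusted p = 0.000987). With all arrays otherwise kept, the call was lost without Lo control replicate 1 or 2 or any 1 of the Lo PMX arrays (adjusted p up to 0.108).

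The apical kinases ATM and ATR were not called. ATM read 9.41, 9.68 and 9.76 on the Lo controls and 9.32, 9.49 and 9.62 on the Lo PMX arrays, with 9.68, 9.82 and 9.36 on the Hi controls and 9.40, 9.87 and 9.81 on the Hi PMX arrays. The 4 groups overlapped, and the change was -0.14 ± 0.15 (limma adjusted p = 0.653). ATR read 9.02, 9.13 and 8.98 on the Lo controls and 9.27, 9.20 and 9.40 on the Lo PMX arrays, with 9.00, 8.97 and 8.96 on the Hi controls and 8.74, 8.84 and 9.02 on the Hi PMX arrays. Its treated Lo arrays were the highest 3 of the 12, but the change of 0.25 ± 0.08 between the Lo groups did not pass (adjusted p = 0.0824).

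Across the set, 15 genes had all 3 Lo PMX arrays below all 9 other arrays, as had 8.78% of all genes. They were BRCA1, BARD1, RAD51AP1, RAD54L, RAD54B, XRCC2, BLM, FANCB, FANCC, FANCE, FANCG, UBE2T, FANCI, CHEK1 and TOPBP1. Of the 17 falls, 13 held whichever 1 of the 12 arrays was left out, and the other 4 were RAD51AP1, POLQ, MSH6 and CHEK2. Without variance moderation 12 of the 30 fell, as did 590 of all 18417 genes. BARD1, among the 13, then missed the threshold as well (unmoderated adjusted p = 0.0608). With the replicate number as a block in the 10 arrays, 21 genes fell (all genes 9.99%), the additional ones over those 10 arrays without the block being EXO1, BRIP1, FANCL and MSH6.

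In Hi cells the same dose left no called change. The comparison of Hi PMX with Hi control gave 0 of 30 genes (0 at an unadjusted p under 0.05, with or without variance moderation), as it gave 0% of all genes with 12 arrays and 0% with 10. The 30 changes ran from -0.15 to 0.15 with a median of 0.00, and their 95% confidence intervals had a median reach of 0.29 to each side, so changes below about 1.22-fold would be inside the interval of a typical gene. The interval of the BRCA1 change of -0.02 reached from -0.36 to 0.32, that of XRCC2 from -0.21 to 0.37, that of FANCI from -0.35 to 0.22 and that of UBE2T from -0.17 to 0.28. Each of these 4 leaves out the change that the same gene had in Lo cells.

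**Figure D2:**
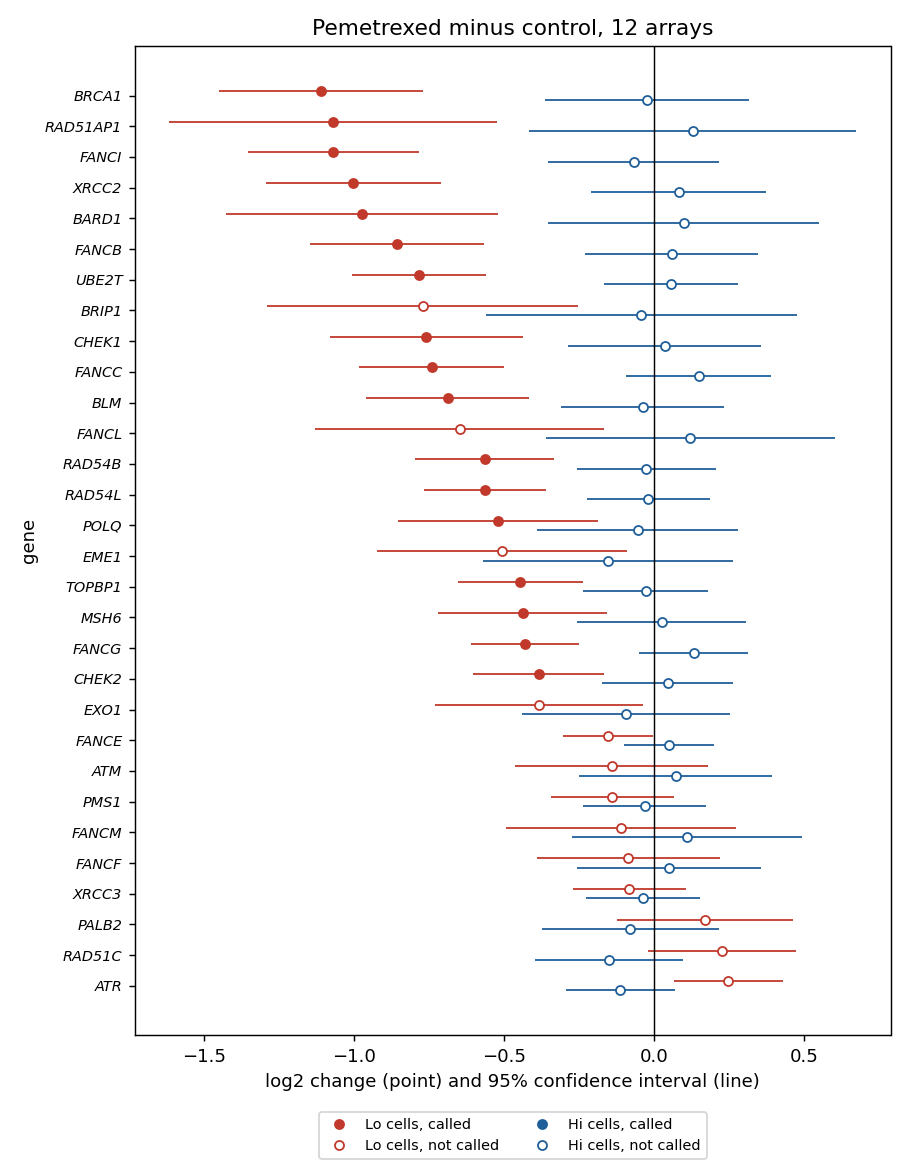
Log2 change, pemetrexed minus control (horizontal axis, point), with its 95% confidence interval (line) for the 30 measured genes (vertical axis, ordered by the change in Lo cells), in Lo cells (red) and Hi cells (blue), 3 arrays per group; filled points passed a limma adjusted p of 0.05. The 17 filled points are all in Lo cells and below 0, and the Hi changes lie between -0.15 and 0.15.

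The Hi arrays of the set varied together. In the Hi PMX group 24 of 30 genes were lowest on replicate 1 and 25 were highest on replicate 3. In the Hi control group 23 were lowest on replicate 1. The share of all genes with such an order was not computed, and the order was not particular to the set. Over Hi PMX replicates 1, 2 and 3 the mean of 10 proliferation genes was 9.99, 10.22 and 10.41. That of 12 end joining genes was 9.17, 9.24 and 9.34, while that of 10 endothelial markers fell, at 11.08, 10.96 and 10.88. The median SD within groups was 0.184 for the 30 genes and 0.115 for all genes. The mean level of the 30 genes on the Hi PMX arrays was 8.36, 8.61 and 8.81, a wider range than that over the Hi controls (8.48, 8.68 and 8.60) and the Lo controls (8.66, 8.78 and 8.70) together.

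The difference between the responses was tested directly as an interaction, the pemetrexed change in Lo cells minus that in Hi cells. A more negative response in Lo cells was called for 9 of 30 genes, against 2.24% of all genes, and a more positive one for 0. Without variance moderation 1 of the 9, UBE2T, passed (adjusted p = 0.0453; all genes 0.760%), and the other 8 had adjusted p from 0.0515 (FANCC) to 0.152 (CHEK1). The 9 were BRCA1 (-1.09 ± 0.22, limma adjusted p = 0.0163), XRCC2 (-1.08 ± 0.19, 0.00803), FANCI (-1.0 ± 0.19, 0.0101), FANCB (-0.91 ± 0.19, 0.017), FANCC (-0.89 ± 0.16, 0.00835), UBE2T (-0.84 ± 0.15, 0.00768), CHEK1 (-0.79 ± 0.21, 0.0499), FANCG (-0.56 ± 0.12, 0.018) and RAD54L (-0.55 ± 0.13, 0.0363). By role these are 3 of 9 mediators, 4 of 8 Fanconi core genes, FANCI and 1 of 5 checkpoint genes.

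The largest interaction estimate, that of RAD51AP1 at -1.20 ± 0.36, was not called (limma adjusted p = 0.0759), nor was that of BARD1 at -1.07 ± 0.30 (0.0592). Without the 2 arrays out of place 9 genes were called (all genes 2.14%), 7 of them the same: RAD54L (adjusted p = 0.0856) and CHEK1 (0.107) were lost, and RAD54B (-0.70 ± 0.14, 0.0135) and CHEK2 (-0.62 ± 0.11, 0.00645) were gained. With the replicate block in these 10 arrays 19 were called (all genes 4.76%), among them RAD54L (adjusted p = 0.0317) and CHEK1 (0.00139) again, and BARD1, RAD51AP1, BLM and TOPBP1. Without Lo PMX replicate 3 the count was 5 (205 of all 18417 genes), and FANCB and FANCG then missed the threshold (limma adjusted p = 0.0534 and 0.0543). Over the 12 fits that left out 1 array RAD54L was called in 5, those without Hi control replicate 2, Hi PMX replicate 1 or 2, Lo control replicate 2 or Lo PMX replicate 1 (adjusted p up to 0.0911 in the others), and CHEK1 in 2, those without Hi PMX replicate 1 or Lo PMX replicate 2 (up to 0.123).

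Among treated cells, the set was mostly lower in Lo than in Hi cells. Of the 30 differences 26 were below 0, with a median of -0.35, against 0.01 for all genes. The comparison of Lo PMX with Hi PMX uses the 6 arrays that are not in doubt, and 15 of 30 genes were lower and 2 higher in Lo cells, where 11.0% of all genes were lower and 11.3% higher. The largest differences were BARD1 at -1.03 ± 0.21 (limma adjusted p = 0.00407), FANCC at -0.98 ± 0.11 (0.000128) and XRCC2 at -0.93 ± 0.13 (0.000574). FANCL at -0.72 ± 0.22 (0.0351) and FANCE at -0.23 ± 0.07 (0.0315) were lower here although neither was called between the Lo groups. By role, 5 of 9 mediators, 6 of 8 Fanconi core genes, FANCI, BLM, CHEK1 and TOPBP1 were lower.

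RAD51C and ATR were the 2 genes higher in treated Lo cells. RAD51C, a mediator found in the BCDX2 and CX3 complexes, read 9.48, 9.66 and 9.61 on the Lo PMX arrays and 8.85, 9.01 and 9.18 on the Hi PMX arrays. The Lo controls read 9.40, 9.53 and 9.14 and the Hi controls 9.08, 9.10 and 9.32. The 2 treated groups did not overlap, and Lo control replicates 1 and 2 were also above every Hi PMX array. RAD51C was higher by 0.57 ± 0.11, or 1.48-fold (limma adjusted p = 0.00361), and ATR by 0.42 ± 0.08, or 1.34-fold (0.00345); both calls held whichever array was left out.

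Without the 2 control arrays, which enter this comparison only through the shared estimate of spread, 16 genes were lower (all genes 14.0%), FANCF being the addition (-0.30 ± 0.10, limma adjusted p = 0.0404), and with the replicate block in the 10 arrays 20 were lower (all genes 18.0%), with RAD54B, BRIP1, MSH6 and ATM added. FANCL lost its call without Hi PMX replicate 2 or 3 or Lo PMX replicate 1 or 2 (adjusted p up to 0.132), FANCE without any 1 of the 6 arrays compared (up to 0.112), RAD51AP1 without Hi PMX replicate 2 or 3 or Lo PMX replicate 1 or 3 (up to 0.126), and RAD54L without Hi PMX replicate 3 or Lo PMX replicate 2 or 3 (up to 0.0649).

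Control cells gave no called gene by folate with the labels as given. Lo control minus Hi control gave 0 of 30 genes (2 at an unadjusted p under 0.05, CHEK2 and RAD54B), as it gave 0% of all genes by limma with 12 arrays. Without the 2 arrays out of place, which are both in this comparison, CHEK2 was higher in Lo controls by 0.53 ± 0.08 (limma adjusted p = 0.00199) and RAD54B by 0.46 ± 0.11 (0.0199), where 3.67% of all genes were higher. Both Lo controls then lay above both Hi controls in 15 of 30 genes, as in 22.0% of all genes, and below them in 3, FANCC, FANCF and FANCL, as in 26.0% of all genes.

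With the replicate block in these 10 arrays 5 genes were higher (all genes 6.73%) and 1 lower (all genes 6.42%): RAD51C, at 0.37 ± 0.08 (limma adjusted p = 0.00965), EME1, at 0.51 ± 0.15 (0.0386), and POLQ, at 0.40 ± 0.11 (0.0357), joined CHEK2 and RAD54B, and FANCF was lower by 0.42 ± 0.07 (0.00275). CHEK2 thus stood highest in untreated Lo cells and, after the drug, did not differ beyond its spread from treated Hi cells (-0.09 ± 0.10, limma adjusted p = 0.613).

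Proliferation genes and endothelial markers also differed between these 4 control arrays. Of 10 proliferation genes 4 were higher in Lo controls (CCNB1, RRM2, TOP2A and CCNA2) and 0 lower, with a median of 0.31, and of 10 endothelial markers 5 were lower (KDR, VWF, PECAM1, ESAM and ERG) and 0 higher, with a median of -0.33. Of all 18417 genes 676 were higher and 644 lower in the same comparison. The endothelial list's mean was 10.32 and 10.27 on the 2 Lo controls and 11.12 and 10.90 on the 2 Hi controls, against 10.94 on the array labelled Lo control replicate 3 and 10.30 on that labelled Hi control replicate 3. The part of either list in the repair gene results was not tested.

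**Figure D3:**
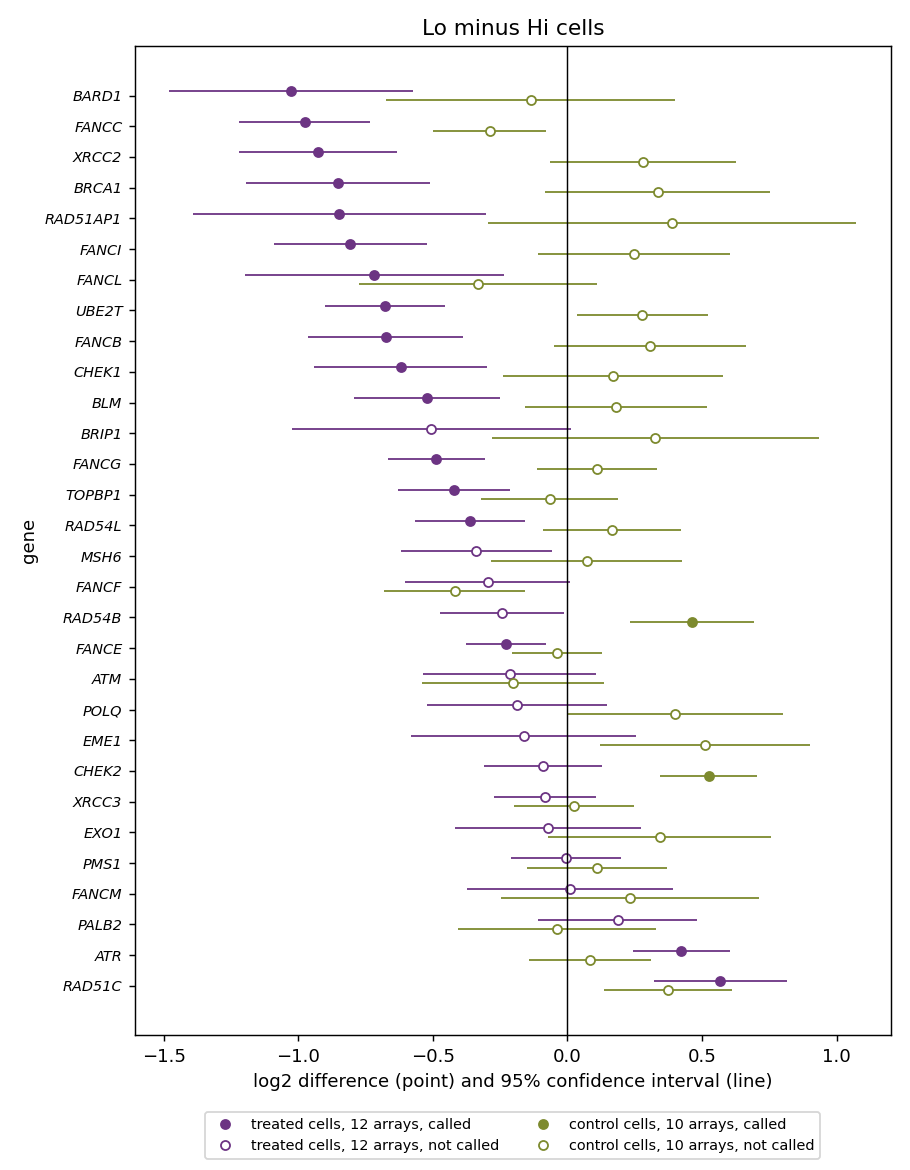
Log2 difference, Lo minus Hi (horizontal axis, point), with its 95% confidence interval (line) for the 30 measured genes (vertical axis, ordered by the difference in treated cells): treated cells in the fit of 12 arrays (purple, 3 arrays per group) and control cells in the fit of 10 arrays (green, 2 arrays per group); filled points passed a limma adjusted p of 0.05. Treated cells have 15 filled points below 0 and 2 above, RAD51C and ATR, and control cells have 2, CHEK2 and RAD54B.

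Other genes of the same pathways, taken as lists, were called in both directions between Lo PMX and Lo control. Of all genes 5.14% fell and 5.60% rose there, and 5.74% fell without the 2 arrays out of place. Of 23 further recombination and resection genes 7 fell and 3 rose, with a median of -0.04: the mediator RAD51B fell by 0.68 ± 0.08 (limma adjusted p = 0.000294) and FIGNL1 by 0.91 ± 0.15 (0.00171), while the helicase HELQ rose by 0.64 ± 0.08 (0.000315). Of 18 further Fanconi and crosslink genes 4 fell, UHRF1 by 1.07 ± 0.14 (0.000427), the nuclease DCLRE1B by 0.71 ± 0.13 (0.00385) and USP1, which removes ubiquitin from FANCD2, by 0.57 ± 0.16 (0.0368); without the 2 arrays out of place 2 fell. Of 23 further checkpoint genes 7 fell and 1 rose, with the fork protection factor TIMELESS down by 0.81 ± 0.09 (0.000164), BABAM2 down by 0.42 ± 0.07 (0.00284) and HUS1, of the 9-1-1 clamp, up by 0.45 ± 0.08 (0.00352).

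End joining and mismatch repair genes were mostly not called. Of 12 non-homologous end joining genes 0 fell and 1 rose, the ligase LIG4, by 0.51 ± 0.07 (limma adjusted p = 0.000689), and the list's median was -0.01. Of 6 further mismatch repair genes 0 were called, with a median of -0.01. Since 5.14% of all genes fell and 5.60% rose, 0 or 1 called in lists of 12 and 6 is no result about those lists. In the same comparison 8 of 10 proliferation genes fell, with a median of -1.05, among them the S and G2 cyclin CCNA2 by 1.58 ± 0.12 (1.37e-05), the topoisomerase TOP2A by 1.69 ± 0.13 (1.48e-05) and the mitotic kinase AURKB by 1.04 ± 0.10 (5.6e-05).

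The mean level of the proliferation list on the arrays ran from 10.33 to 10.58 in Lo controls, 9.44 to 9.57 in Lo PMX, 10.03 to 10.44 in Hi controls and 9.99 to 10.41 in Hi PMX. That of the 30 repair and checkpoint genes ran from 8.66 to 8.78, 8.15 to 8.27, 8.48 to 8.68 and 8.36 to 8.81 in the same order. Both means were thus lowest on the 3 Lo PMX arrays, and the part of proliferation in the repair gene results was not tested. In these bulk RNA samples fewer cells expressing a gene and less RNA per cell cannot be told apart.

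Endothelial markers moved beside the comparisons too. Of 10 endothelial markers 4 fell between Lo PMX and Lo control, and 9 were lower in Lo PMX than in Hi PMX, where the list's mean ran from 9.89 to 10.01 and from 10.88 to 11.08. Of 10 epithelial and lung carcinoma markers 0 changed between the Lo groups and 1 was higher in Lo PMX than Hi PMX, and the fibroblast and smooth muscle list gave the same counts. Of 9 leukocyte markers 1 was lower in both comparisons, LYZ. Of all genes 5.14% fell and 5.60% rose between the Lo groups, and 11.0% were lower and 11.3% higher in Lo PMX than in Hi PMX. Beside these shares, 1 called marker in a list of 9 or 10 is no result about that list. The part of these markers in the repair gene results was not tested.

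**Figure D4:**
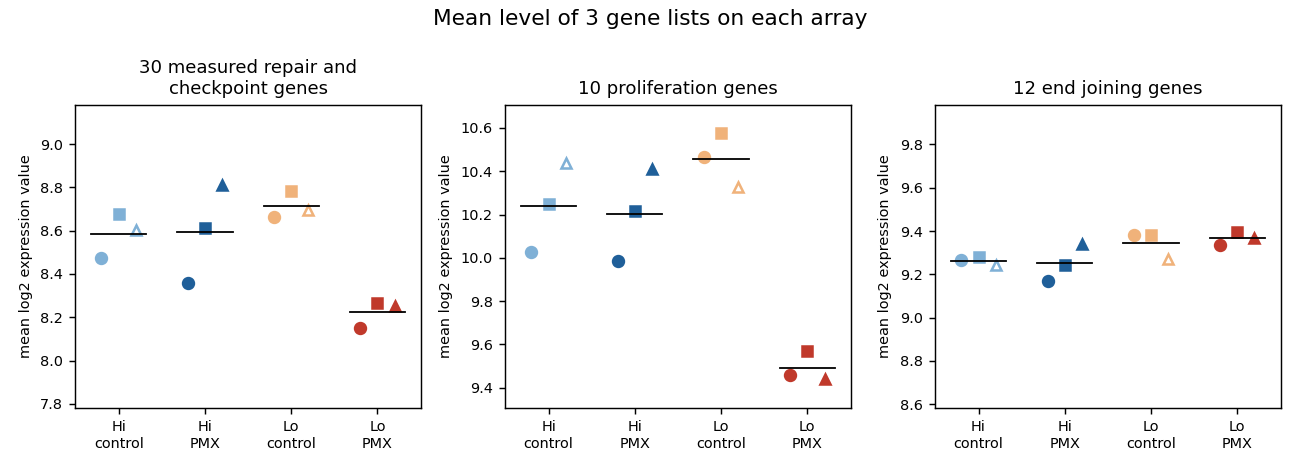
Mean log2 expression value (vertical axis, equal spans of 1.4 units) over the 30 measured repair and checkpoint genes, 10 proliferation genes and 12 end joining genes on each of the 12 arrays by group (horizontal axis); circles, squares and triangles are replicates 1, 2 and 3, lines are group means, and open triangles are the 2 arrays out of place. The Lo PMX arrays are lowest in the first 2 panels, at 8.15 to 8.27 and 9.44 to 9.57, and not in the panel of end joining genes.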

How the data were processed

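Total RNA of 12 EA.hy926 cultures was hybridised to Affymetrix arrays as biotin-labelled target, per the labels' protocols. The authors summarised probe sets with RMA in Partek 6.5, per the submitters' processing notes, and the table they deposited is on a log2 scale. How RMA was set is not given in the sources used here. Detection calls were not used, so no level can be named as undetected, and precision is limited by the number of arrays.

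Of 33297 probe sets, 19460 had 1 gene symbol in the array's annotation table, 1754 several and 12083 none; the brightest of the first kind was used per gene (18417 genes). One limma model (limma 3.58.1, R 4.3.3, lmFit and eBayes) with 4 group means was fitted to all 12 arrays. Genes were called at a two-sided Benjamini-Hochberg adjusted p under 0.05 over all genes, and errors after ± are standard errors. The fit was tested on simulated data. The p-values measure the spread between cultures of 1 cell line.

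The genes and lists were chosen with earlier results of these data known. Values on every array are given for the 8 called genes with the largest change between Lo PMX and Lo control, for BRCA1, ATM, ATR, CHEK1 and CHEK2, and for genes called against the majority; other lists give at most 3 called genes with the smallest p. Promoters are RefSeq's.

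Labels number replicates 1 to 3 in every group. Deviations from group means of same-numbered arrays correlated above 0.1 in 11 of 18 pairs with 12 arrays (-0.66 to 0.51) and in 13 of 13 with 10 (0.11 to 0.54). The 2 controls left per group then mirror each other. With 10 arrays some pairs of different numbers correlated more, while others were negative, down to -0.54. Lo control replicate 2 correlated at 0.439 with Hi PMX replicate 3 and at 0.225 with Hi PMX replicate 2. Hi PMX replicate 2 correlated at 0.224 with Lo PMX replicate 3 and at 0.115 with Lo PMX replicate 2. The numbers may thus not pair the cultures, and blocked values are printed beside the 10-array results as an alternative. Alternatives were each array left out, the block, no moderation, quantile normalization, median centring, a filter on dim genes, mean probe sets and fits of only the compared groups.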

Additional observations from a re-analysis of the deposited data

Results flagged for a closer look

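The response to pemetrexed differed between Lo and Hi cells for 9 of the 30 repair and checkpoint genes by the test of the difference itself (limma, adjusted p under 0.05 over all genes), each with the more negative response in Lo cells, where 2.24% of all genes were called in that direction. The differences on the log2 scale, Lo response minus Hi response, were -1.09 for BRCA1, -1.08 for XRCC2, -1.0 for FANCI, -0.91 for FANCB, -0.89 for FANCC, -0.84 for UBE2T, -0.79 for CHEK1, -0.56 for FANCG and -0.55 for RAD54L. Of the 9, 7 were also called without the 2 arrays out of place, RAD54L and CHEK1 being lost, and 1, UBE2T, without variance moderation. CHEK1 was called in 2 of the 12 fits that each left out 1 array and RAD54L in 5. With groups of 3 arrays no single array was tested as standing apart within its group.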

How the results depend on the processing

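Called genes of the 30, over the fits that each left out 1 array, numbered 13 to 18 for Lo PMX minus Lo control, 13 to 18 for Lo PMX minus Hi PMX, 0 throughout for the Hi cells and for the controls, and 5 to 13 for the interaction, lowest without Lo PMX replicate 3. Calls among all 18417 genes moved too, from 1170 to 2563 for Lo PMX minus Lo control and from 2855 to 4607 for Lo PMX minus Hi PMX. For the interaction they ran from 443 to 956. Without the 2 arrays out of place 2 genes were called between the controls (1320 of all genes), and 6 with the replicate block as well (2422 of all genes). The interaction had 19 with the replicate block in those 10 arrays (1738 of all genes) and 1 without variance moderation (291 of all genes). With the replicate block in all 12 arrays the counts were 18 for Lo PMX minus Lo control, 19 for Lo PMX minus Hi PMX, 13 for the interaction and 0 for the others. Among all genes they were 2248, 4492, 994 and 0 in the same order. In neither the 12 nor the 10 arrays is it settled that the numbers pair the samples. Every other alternative left the counts of these 5 comparisons within 1.5 times. For 32 combinations of a gene and a comparison, 663 alternative values were computed. Of these values 586 kept direction and side of the threshold, 76 kept direction but missed it, 1 newly passed and 0 reversed. Except for ATM and ATR between the Lo groups, the combinations were chosen because they were called with all 12 arrays. Only ATM and ATR could therefore newly pass, and genes called only in an alternative, such as EME1 between the Lo groups, are not counted. The values thus do not describe the whole set. The cause of these shifts was not tested. Fits of only the compared groups cannot be made for the interaction.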
